A study of Homo sapiens with 18 samples.

Results

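The genes described here are 10 transcription factors grouped under blood lineages other than the myeloid one. They are GATA2, TAL1 and KLF1 of the stem cell and erythroid line, PAX5 and EBF1 of the B cell line, and GATA3, TCF7, LEF1, BCL11B and TBX21 of the T and NK cell line. The grouping is not exclusive, as GATA2 is also a factor of mast cells, which are myeloid. They are 10 of 20033 protein-coding genes on chromosomes 1 to 22, X and Y in GENCODE release 44. For each gene and histone mark, every listed interval that overlapped 2 kb either side of one of the gene's transcription start sites (TSS) was taken, and the interval with the highest mean count over 4 libraries stood for the gene.

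Histone marks were profiled by Cut&Tag, in which an antibody directs the Tn5 transposase to cut and tag the DNA next to a modified histone. The cells were MOLM-13, an established human acute myeloid leukemia cell line that carries a KMT2A rearrangement. They were treated with 100 nM PR-957 (ONX-0914), an inhibitor of the immunoproteasome subunit PSMB8, or with DMSO as diluent control, and H3K4me3, H3K27ac, H3K4me1 and H3K27me3 were each measured in 2 libraries per treatment, 16 libraries in all. The labels give a treatment time of 72 h, whereas a legend in the study's supplement gives a shorter one. All groups are of this single cell line, and data of the 2 IgG controls were not used here. The labels do not say whether the 2 libraries of a group came from separate cultures, so p-values measure only the spread between these libraries, which may be technical.

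Nucleosomes with H3K4me3 mark TSS, H3K27ac marks active promoters and enhancers, and H3K4me1 marks enhancers and the flanks of promoters. H3K27me3 is set by Polycomb repressive complex 2 and covers genes that are held silent, among them factors of lineages that a cell has not taken. Promoters that carry H3K4me3 and H3K27me3 together are called bivalent, and they are typical of developmental regulators with CpG-rich promoters.

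The promoter sequences show how CpG content differs between these genes. RefSeq (GRCh38.p14) holds promoters for 10 of the 10 genes, each of 300 bases around a start, and for 6 of them a record spans the canonical TSS of GENCODE. The 3 shown here are printed 5′ to 3′ on the gene's strand with each CG dinucleotide in capitals, namely those of the gene with the most H3K4me3 (GATA2, chr3:128493152-128493451, minus strand), the gene with the most H3K27me3 (GATA3, chr10:8054438-8054737, plus strand) and the gene with the least of both (KLF1, chr19:12887152-12887451, minus strand).
GATA2: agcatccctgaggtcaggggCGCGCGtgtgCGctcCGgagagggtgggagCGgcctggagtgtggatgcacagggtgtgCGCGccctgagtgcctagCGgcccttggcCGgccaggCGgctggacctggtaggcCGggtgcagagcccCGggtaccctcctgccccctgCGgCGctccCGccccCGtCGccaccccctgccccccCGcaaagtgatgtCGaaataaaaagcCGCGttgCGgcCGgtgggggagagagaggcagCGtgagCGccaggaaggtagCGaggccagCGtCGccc
GATA3: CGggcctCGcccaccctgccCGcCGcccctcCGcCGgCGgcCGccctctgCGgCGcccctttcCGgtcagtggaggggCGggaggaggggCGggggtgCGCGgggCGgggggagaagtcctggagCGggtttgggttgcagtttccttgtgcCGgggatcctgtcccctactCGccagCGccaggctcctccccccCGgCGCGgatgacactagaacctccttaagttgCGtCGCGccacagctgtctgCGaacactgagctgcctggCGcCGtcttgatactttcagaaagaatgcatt
KLF1: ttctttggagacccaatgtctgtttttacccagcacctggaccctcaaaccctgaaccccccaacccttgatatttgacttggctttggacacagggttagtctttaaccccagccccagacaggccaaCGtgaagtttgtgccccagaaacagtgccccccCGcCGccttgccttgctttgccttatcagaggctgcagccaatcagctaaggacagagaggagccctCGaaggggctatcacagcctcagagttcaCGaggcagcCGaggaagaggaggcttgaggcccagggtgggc
The GATA2 promoter holds 29 CG dinucleotides in 300 bases and that of GATA3 also holds 29, more than in 75.8% of the 35116 RefSeq promoters of this length. PAX5 has 30, TBX21 23 and BCL11B 20. KLF1 has 6, below the median of 14 over all promoters. The letters AGATAA or TGATAA, read on both strands, occur once in the KLF1 promoter and in none of the other 5, and 16.3% of all promoters hold at least 1 such match. The printed GATA2 window lay within listed intervals of all 4 marks, that of GATA3 within intervals of H3K4me3, H3K4me1 and H3K27me3, and that of KLF1 within none.

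All 10 genes had an interval of H3K4me3 and an interval of H3K27me3 within 2 kb of a TSS. At KLF1 neither covered the TSS, and they lay 1015 and 822 bp from it. With a window of 1 kb, 9 genes had both. Over all protein-coding genes, 63.9% had H3K4me3, 19.8% had H3K27me3 and 11.6% had both. H3K27ac was listed at 3 of the 10 genes, against 60.4% of all genes, and H3K4me1 at 8, against 43.4%. Both marks without H3K27ac were found at 7 of the 10 genes and at 4.76% of all genes. The interval list of a mark is shared by its DMSO and PR-957 libraries, so that presence is a property of the list and not of DMSO cells alone. H3K4me3 and H3K27me3 were measured in separate libraries, so both marks on the same chromosome copy and marks on different copies or cells cannot be told apart.

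**Figure D1:**
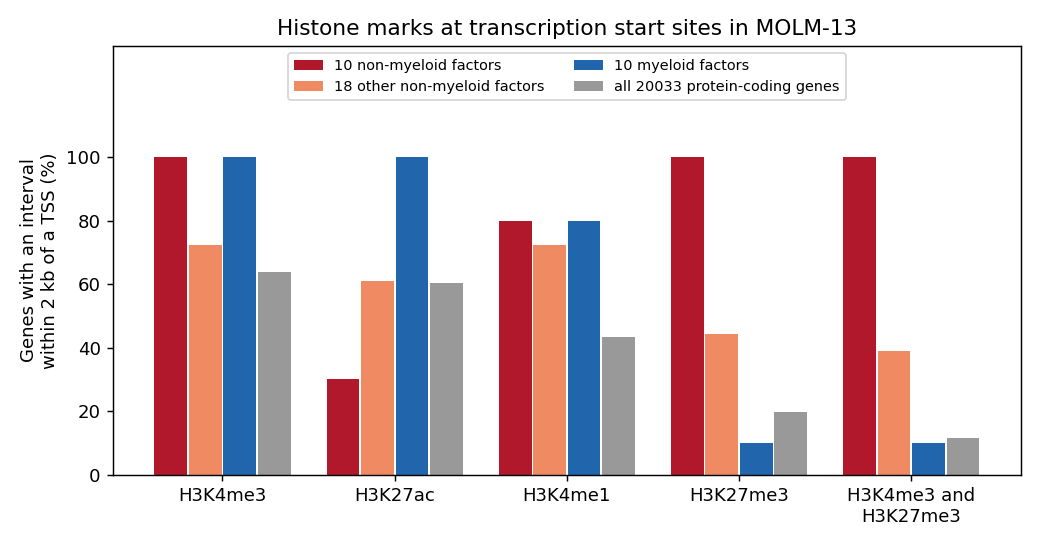
Share of genes (vertical axis, %) with at least 1 listed interval within 2 kb of a TSS, for each mark and for H3K4me3 together with H3K27me3, in the 10 factors described here, 18 other non-myeloid factors, 10 myeloid factors and all protein-coding genes. The 10 factors reach 100% for H3K4me3 and H3K27me3 and 30% for H3K27ac, whereas the myeloid factors reach 100% for H3K27ac and 10% for H3K27me3.

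The labelled cell type was checked on other genes. All 10 myeloid factors of a list that includes SPI1, CEBPA and RUNX1 had H3K4me3 and H3K27ac, and 1 of them had H3K27me3. Of 6 lymphoid surface genes, 2 had H3K4me3, 3 had H3K27ac and 1 had H3K27me3. Of these H3K27ac intervals 1 was 16.6 kb wide, and another did not overlap the H3K4me3 interval of its gene. Whether they mark the main promoters of these genes was not tested. Among 4 erythroid genes each mark was found at 1, but H3K4me3 and H3K27me3 together at 0. The combination was less general among 18 other factors of non-myeloid lineages, where 8 had H3K27me3, 7 had it together with H3K4me3, and 11 had H3K27ac. By lineage, both marks were found at 2 of 6 erythroid and megakaryocytic, 3 of 6 B cell and 2 of 6 T and NK cell factors of that list.

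H3K27me3 was wider than the H3K4me3 interval at all genes but KLF1, where it spanned 0.861 kb against 1.96 kb. At GATA2 it spanned 13.4 kb against 9.97 kb. In 9 of the 10 genes H3K27me3 intervals covered 100% of the H3K4me3 interval, and in KLF1 they covered 34.0%. With overlapping intervals merged, the H3K27me3 domain around the TSS was 60.5 kb at PAX5, 52.4 kb at GATA3, 44.8 kb at BCL11B, 25.6 kb at TAL1 and 20.7 kb at TCF7. It was 14.0 kb at EBF1, 13.4 kb at GATA2, 13.2 kb at TBX21 and 13.1 kb at LEF1, and 0.861 kb at KLF1. The map of the intervals shows narrow H3K4me3 inside wide H3K27me3 at most of these genes.

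**Figure D2:**
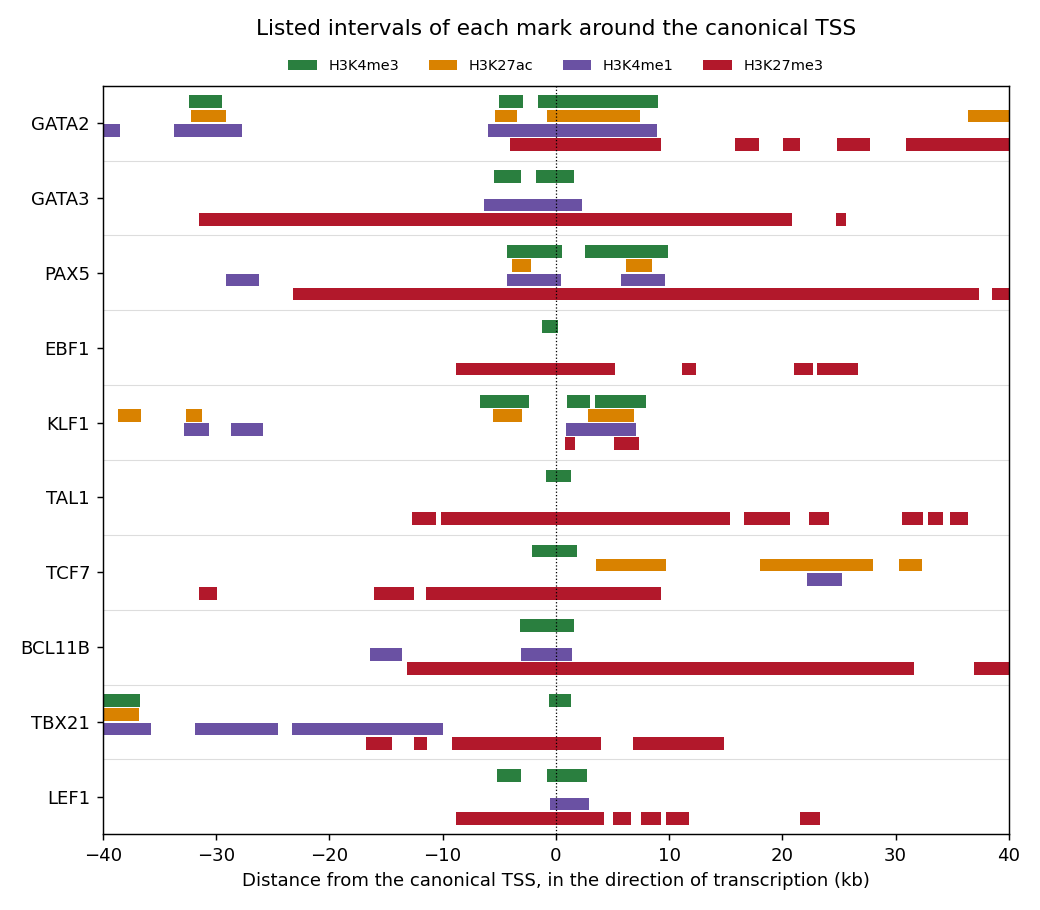
Listed intervals of the 4 marks (coloured bars, overlapping intervals merged) within 40 kb of the canonical TSS of each gene, with distance in kb in the direction of transcription on the horizontal axis. H3K27me3 spans the TSS in 9 of 10 genes, up to 60.5 kb at PAX5, while at KLF1 the nearest stretch, of 0.861 kb, lies 822 bp from the TSS.

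Levels were compared between genes as CPM per kb, the count scaled to library size and divided by the length of the interval. H3K4me3 in DMSO was highest at GATA2, a factor of stem cells and of mast cells, with 5.76 and 5.60 CPM per kb in the 2 libraries. PAX5, which commits cells to the B lineage, had 3.20 and 3.41, and TCF7, a factor of early T cells, had 2.59 and 2.39. The median over protein-coding genes with an H3K4me3 interval was 4.59 CPM per kb, so that GATA2 alone of the 10 genes lay above it. The GATA2 interval was also wide, at 9.97 kb (chr3:128484210-128494183), wider than in 96.4% of those genes.

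The other 7 genes had lower H3K4me3. BCL11B, which seals T cell identity, had 2.39 and 2.32 CPM per kb. GATA3, a factor of T helper cells, had 1.56 and 1.66, and TBX21, which drives interferon-gamma producing T and NK cells, had 1.20 and 1.04. LEF1, a DNA-binding partner of beta-catenin, had 0.855 and 0.881, EBF1, an early B cell factor, 0.996 and 0.621, and TAL1, a partner of the GATA factors, 0.873 and 0.490. KLF1, which switches on globin genes, was lowest with 0.478 and 0.355. Neighbours in this order had separate ranges except LEF1 against EBF1 and EBF1 against TAL1, which overlapped.

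H3K27me3 had a different order. GATA3 led with 18.4 and 18.8 CPM per kb (chr10:8025455-8072923), a level above that of 96.2% of protein-coding genes with such an interval. TAL1 followed with 13.2 and 13.4 (chr1:47216956-47242381), then PAX5 with 10.21 and 10.24 (chr9:36999168-37048473) and LEF1 with 10.5 and 9.83 (chr4:108164714-108177774), and PAX5 and LEF1 overlapped in their ranges. BCL11B had 6.64 and 6.41, EBF1 4.48 and 5.01, and TCF7 3.10 and 2.86. These 7 genes all exceeded the median of 1.97 over protein-coding genes with an H3K27me3 interval.

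TBX21 with 2.23 and 2.37 CPM per kb and GATA2 with 2.29 and 2.22 overlapped and lay close to that median. KLF1 had 1.35 and 0.307, which rests on 11 and 3 counts, so that the mark was barely measured there. The order of the genes in H3K4me3 and H3K27me3 stayed as given when the interval with the highest count per kb was used. GATA2 thus combined the most H3K4me3 with nearly the least H3K27me3 of the 10 genes, and TAL1 and LEF1 combined low H3K4me3 with high H3K27me3.

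H3K27ac stood over the canonical TSS in GATA2 only. There it had 3.86 and 3.58 CPM per kb in DMSO (chr3:128485753-128493960), against a median of 4.0 over protein-coding genes with an interval. At TCF7 the H3K27ac interval lay 21305 bp from the canonical TSS, at an internal start, with 1.36 and 1.17 CPM per kb. At PAX5 it lay 6197 bp away, with 0.654 and 0.261 from 20 and 6 counts. These were the intervals picked by the 2 kb rule, and H3K27ac was also listed nearer the canonical TSS. At TCF7 it was listed from 3529 to 9687 bp in the direction of transcription. At PAX5 it was listed from -3899 to -2194 bp, which covered 35.8% of the H3K4me3 interval. At GATA2, H3K27ac and H3K27me3 were thus listed over the same start. They were measured in separate libraries, so 1 chromosome copy and different copies or cells cannot be told apart here either.

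H3K4me1 was listed at all genes but TAL1 and TBX21. It ranged in DMSO from a mean of 0.817 CPM per kb at LEF1 to 1.92 at EBF1, around the median of 1.32 over protein-coding genes. With the highest count per kb interval, 4 of the 8 genes kept their rank and BCL11B led in place of EBF1. The EBF1 interval lay 76905 bp from the canonical TSS, at an internal start, and that of TCF7 lay 22193 bp away. At KLF1 the H3K4me1 interval also covers the start of DNASE2, so its signal cannot be assigned to 1 gene. Likewise the TSS of antisense or other non-coding genes (GATA2-AS1, GATA3-AS1, LEF1-AS1 and LINC02202 beside EBF1) lie in intervals of these factors.

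**Figure D3:**
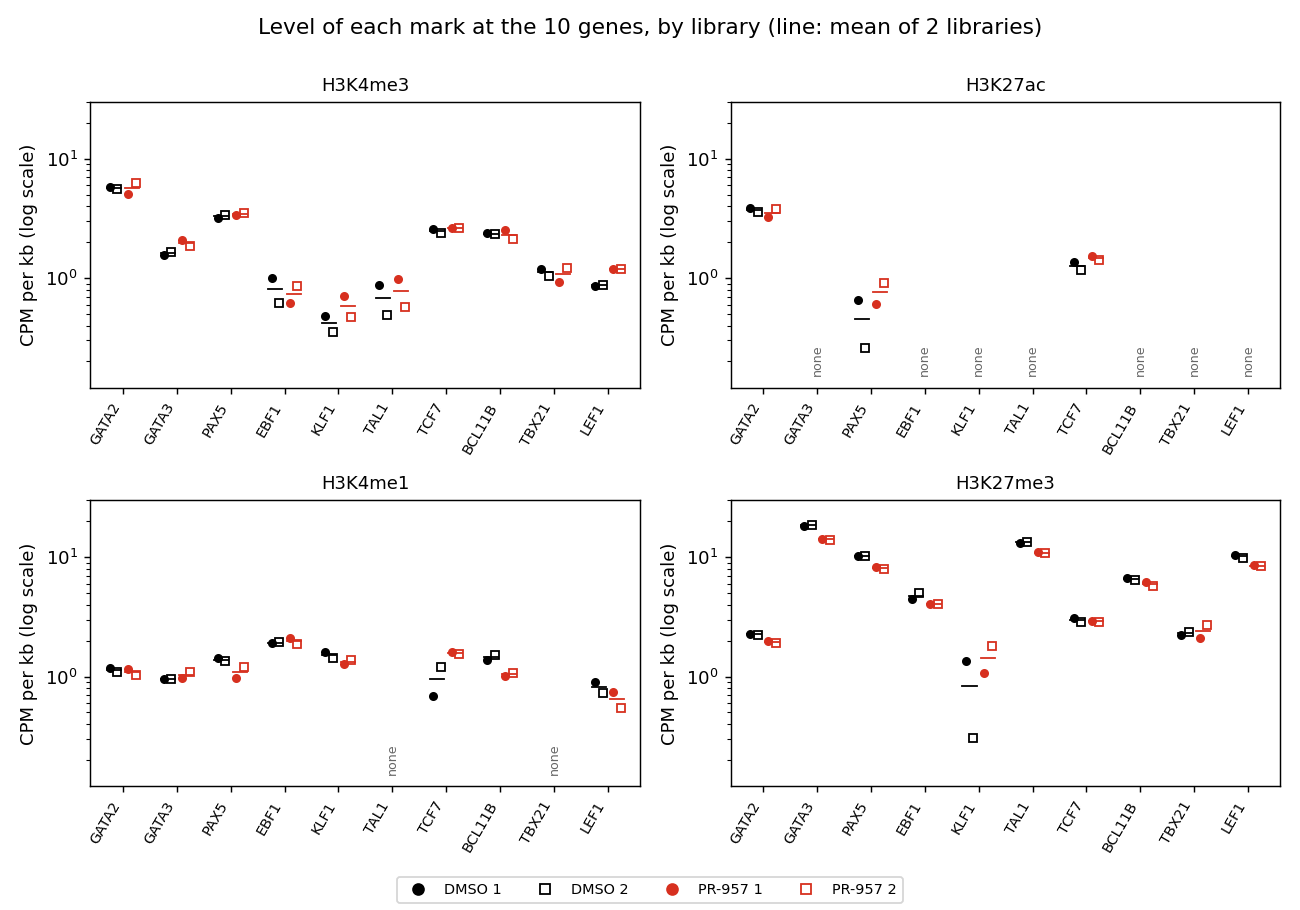
Level of each mark (CPM per kb, log axis) at the 10 genes in each library, with DMSO in black and PR-957 in red, replicate 1 as circles, replicate 2 as squares and a line at the mean of 2 libraries; "none" marks a gene with no interval. H3K27me3 at GATA3 runs from 18.4 and 18.8 in DMSO to 14.3 and 14.1 with PR-957, and GATA2 has the highest H3K4me3.

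PR-957 was compared with DMSO within each mark by edgeR's quasi-likelihood test on the counts, over all intervals, with Benjamini-Hochberg adjustment and a false discovery rate of 0.05. H3K27me3 fell at 4 of the 10 genes, GATA3, PAX5, TAL1 and LEF1, and rose at none. Over all 31806 H3K27me3 intervals tested, 5.92% passed in either direction and 5.09% were lower, and among the intervals that stand for protein-coding genes 9.99% were lower. The median log2 fold change of the 10 genes was -0.22, against -0.021 over protein-coding genes with a tested interval and 0.016 over all intervals. No other mark passed at any of the 10 genes.

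GATA3 had 875.2 and 890.0 CPM of H3K27me3 in DMSO and 680.0 and 667.5 with PR-957. Both PR-957 libraries lay below both DMSO libraries, and the SD within a pair was 10.5 and 8.82 CPM. The log2 fold change was -0.39 (SE 0.045, n = 2 libraries per treatment, adjusted p = 2.06e-12 in edgeR).

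PAX5 had 503.5 and 505.1 CPM in DMSO and 406.4 and 390.2 with PR-957. The groups did not overlap, with a log2 fold change of -0.34 (SE 0.048, adjusted p = 5.74e-09 in edgeR). GATA3 and PAX5 kept their call and direction in each of the 18 alternatives run for each, where the adjusted p was at most 6.4e-05 for GATA3 and 0.00106 for PAX5.

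TAL1 had 334.7 and 341.3 CPM in DMSO and 279.5 and 274.7 with PR-957. The groups did not overlap, with a log2 fold change of -0.29 (SE 0.051, adjusted p = 5.1e-06 in edgeR). The call was lost with cyclic loess offsets (log2 fold change -0.12, adjusted p = 0.0572 in edgeR) and with offsets on the counts per kb (-0.12, adjusted p = 0.064).

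LEF1 had 136.7 and 128.4 CPM in DMSO and 112.5 and 109.4 with PR-957. The groups did not overlap, with a log2 fold change of -0.26 (SE 0.065, adjusted p = 0.00339 in edgeR). The call ended without DMSO replicate 1 (-0.22, adjusted p = 0.215 in edgeR), when scaled by library size alone (-0.095, adjusted p = 0.405), after cyclic loess (-0.14, adjusted p = 0.197) and with offsets on the counts per kb (-0.12, adjusted p = 0.347).

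The scaling moved all H3K27me3 values. With library size only, the median log2 fold change over all H3K27me3 intervals was 0.176. On that scale the log2 fold change was -0.23 at GATA3, -0.18 at PAX5 and -0.13 at TAL1, which all passed (adjusted p = 1.48e-08, 0.000215 and 0.0492 in edgeR).

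At the other 6 genes H3K27me3 did not pass. EBF1 had 59.5 and 66.6 CPM in DMSO and 53.4 and 54.2 with PR-957, with a log2 fold change of -0.23 (SE 0.085, adjusted p = 0.0984 in edgeR). BCL11B had 280.0 and 270.2 against 262.1 and 241.2, with -0.13 (SE 0.053, adjusted p = 0.162), passed without PR-957 replicate 1 (-0.20, adjusted p = 0.00542), and stood at 0.031 when scaled by library size alone and at 0.029 after cyclic loess. At GATA2 the values were 29.3 and 28.3 against 25.6 and 24.3 CPM, with -0.21 (SE 0.12, adjusted p = 0.425). PR-957 libraries lay below DMSO at these 3 genes too, so that 7 of the 10 genes had groups that did not overlap, all lower, where the share that did not overlap in either direction was 44.2% of all tested H3K27me3 intervals and 73.4% of those standing for protein-coding genes. The share among the 10 genes was thus near that of other genes.

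TCF7 had 61.7 and 57.0 CPM of H3K27me3 in DMSO and 58.5 and 57.4 with PR-957 (log2 fold change -0.032, 0.13 with library size only). TBX21 had 29.3 and 31.2 against 27.9 and 35.7 (0.078), and KLF1 had 11 and 3 counts against 10 and 20 (0.84, SE 0.77). In these 3 genes the groups overlapped. Of the 5 T and NK cell factors, GATA3 and LEF1 thus passed and BCL11B, TCF7 and TBX21 did not, and the difference between these genes was not tested.

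**Figure D4:**
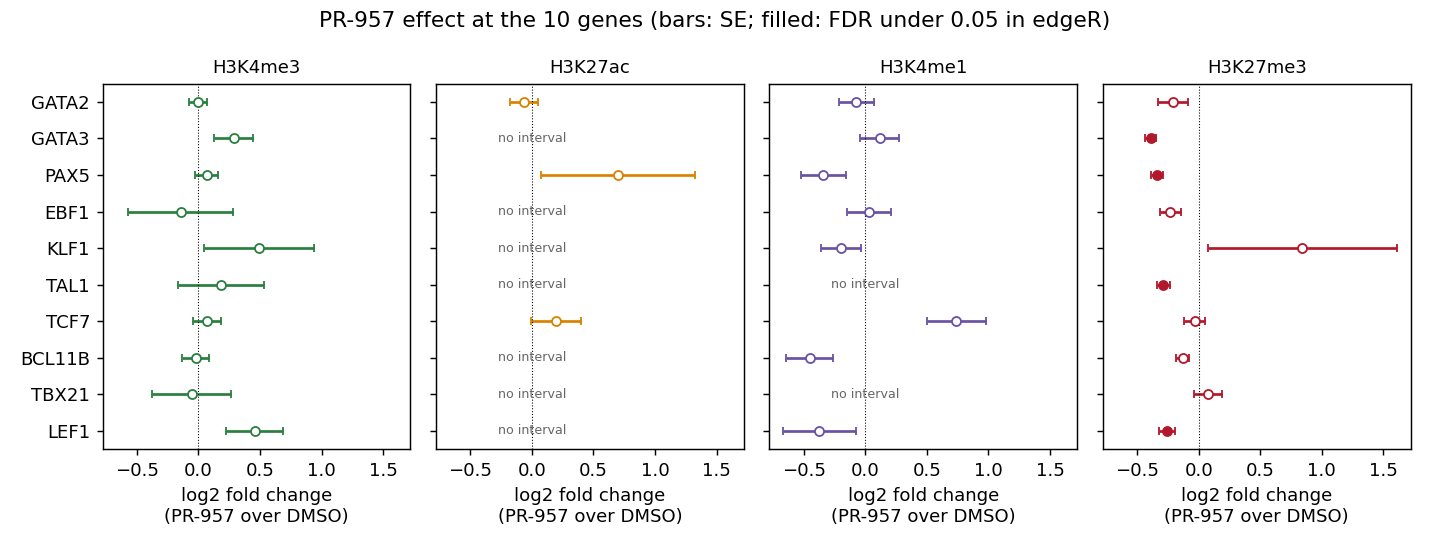
Log2 fold change of PR-957 over DMSO (horizontal axis) with its SE for each gene and mark, 2 libraries per treatment; filled points had an adjusted p under 0.05 in edgeR. The 4 filled points are H3K27me3 at GATA3, PAX5, TAL1 and LEF1, at -0.39, -0.34, -0.29 and -0.26.

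The 4 genes at which H3K27me3 fell are those with the most H3K27me3 per kb. Among all tested intervals, 1397 had a mean of at least 8 CPM per kb over the 4 libraries, and 53.7% of them were lower with PR-957, with a median log2 fold change of -0.22. All 4 members in that range were lower. Between 4 and 8 CPM per kb 17.5% were lower, and neither EBF1 nor BCL11B passed. Between 2 and 4, the range of GATA2, TCF7 and TBX21, 4.19% were lower. A lower value at this level was common to many intervals and is not shown to be particular to these genes. The part of the level in these calls was not tested beyond the offsets on the counts per kb, under which GATA3 (-0.20, adjusted p = 7.41e-07 in edgeR) and PAX5 (-0.20, adjusted p = 1.28e-05) passed.

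**Figure D5:**
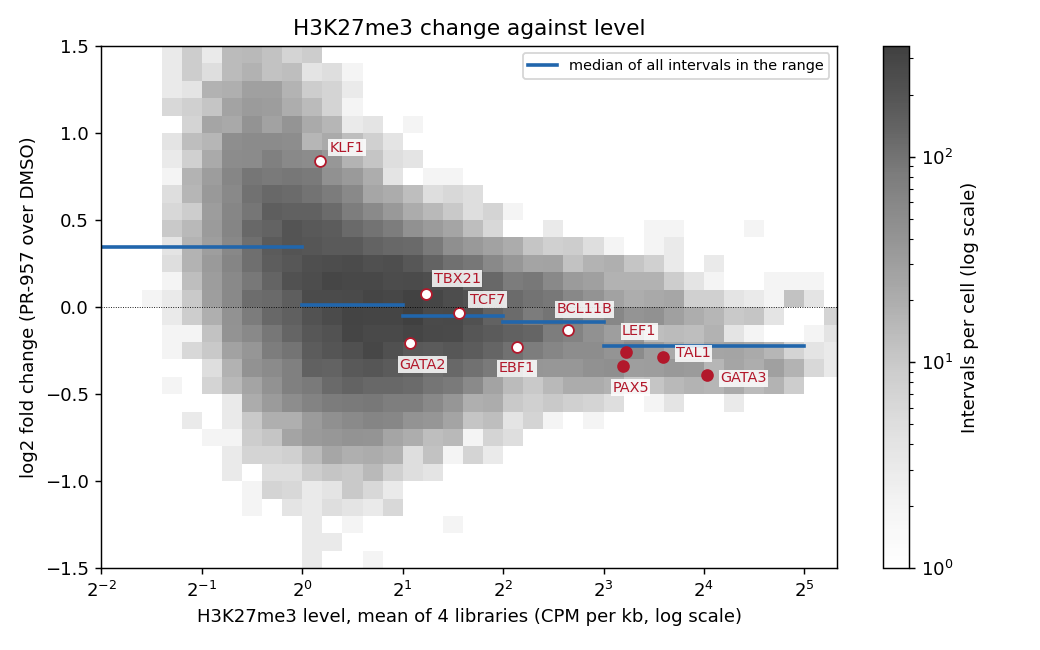
Log2 fold change of H3K27me3 (vertical axis) against the mean level over 4 libraries (CPM per kb, log axis) for all tested intervals (grey, number per cell), with the median in each level range (blue) and the 10 genes (red, filled where called). The median is -0.22 at 8 CPM per kb and above, where GATA3, TAL1, PAX5 and LEF1 lie.

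Along the whole loci, from 10 kb before each gene to 10 kb after it, 20 of 119 tested H3K27me3 intervals passed, 19 lower and 1 higher. Over all tested H3K27me3 intervals 5.92% passed in either direction and 5.09% were lower. Listed intervals overlap one another and recount the same reads, and the 20 form 6 separate regions. The lower regions were 49.7 kb at GATA3, 56.7 kb at PAX5, 25.6 kb at TAL1 and 13.1 kb at LEF1, each across the TSS, and a further 10.9 kb inside PAX5 (chr9:36979666-36990604), downstream of the promoter domain, with log2 fold changes of -0.27 to -0.25. The 3 intervals of that inner region passed narrowly (adjusted p = 0.0322 to 0.0483 in edgeR), and all 3 lost the call with library size only (0.517 to 0.589), cyclic loess offsets (0.21 to 0.274), GC content offsets (0.069 to 0.112), DESeq2 (0.104 to 0.134), the replicate block (0.0996 to 0.127), a mean count of 50 or more (0.071 to 0.101) and offsets on the counts per kb (0.289 to 0.347), and without DMSO replicate 1 (0.121 to 0.147), DMSO replicate 2 (0.262 to 0.324) or PR-957 replicate 2 (0.228 to 0.291).

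The higher interval lay at the KLF1 locus (chr19:12879902-12882044), 5157 bp from the KLF1 TSS and over the start of DNASE2. Its counts were 3 and 5 in DMSO and 12 and 36 with PR-957 (log2 fold change 2.33, SE 0.73, adjusted p = 0.035 in edgeR). PR-957 replicate 2 held most of these counts, and the call ended without it. Leaving out DMSO replicate 1 or 2 also ended the call. In edgeR the adjusted p was 0.0991 with the replicate block, 0.152 with cyclic loess and 0.187 with offsets on the counts per kb. DESeq2 gave no adjusted p for this interval.

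H3K4me3 at the 10 genes did not pass in edgeR or in DESeq2. Over all H3K4me3 intervals 0.226% passed in edgeR. An unadjusted p under 0.05 in edgeR was found at 1 gene, LEF1, against 1028 of 12795 protein-coding genes with a tested interval. LEF1 had 2.77 and 2.86 CPM in DMSO and 3.84 and 3.90 with PR-957, with a log2 fold change of 0.46 (SE 0.23, adjusted p = 0.663 in edgeR). GATA3 had 5.24 and 5.57 against 6.96 and 6.21, with 0.29 (SE 0.16, adjusted p = 0.711). The groups did not overlap at 3 genes, LEF1, GATA3 and TCF7, all higher with PR-957, where 36.6% of all intervals and 54.2% of those standing for protein-coding genes did not overlap.

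GATA2 had 57.4 and 55.8 CPM of H3K4me3 in DMSO and 50.1 and 62.7 with PR-957 (log2 fold change -0.0051, SE 0.070). Its DMSO values lay between the PR-957 values. The other 6 genes had log2 fold changes from -0.15 at EBF1 to 0.49 at KLF1, with overlapping groups. At PAX5 the change was 0.066 (SE 0.093), from 15.3 and 16.3 CPM to 16.2 and 16.8. It was 0.18 for counts summed over the window (adjusted p = 0.437 in edgeR). Along the PAX5 locus, 5 of 9 H3K4me3 intervals had an unadjusted p under 0.05 in edgeR. These listed intervals overlap one another and recount the same reads, so the 5 are not independent. The 9 had a median log2 fold change of 0.33, and none passed (lowest adjusted p = 0.11 in edgeR).

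H3K27ac did not pass at any of the 3 genes, where 0.238% of all intervals passed in edgeR. None of the 3 had an unadjusted p under 0.05 in edgeR, against 1155 of 12089 protein-coding genes with a tested interval. DESeq2 gave no adjusted p at these 3 genes. GATA2 had 31.6 and 29.3 CPM in DMSO and 26.8 and 31.2 with PR-957, with a log2 fold change of -0.066 (SE 0.11, adjusted p = 0.948 in edgeR). TCF7 had 9.16 and 7.86 against 10.3 and 9.43, with 0.20 (SE 0.20). TCF7 was the 1 gene of 3 whose groups did not overlap, against 36.9% of all intervals and 55.5% of those standing for protein-coding genes. PAX5 had 20 and 6 counts against 14 and 30, which overlap.

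H3K4me1 did not pass at any of 8 genes in edgeR, where 1.94% of all intervals passed. An unadjusted p under 0.05 in edgeR was found at 2 of the 8, against 1470 of 8702 protein-coding genes with a tested interval. DESeq2 gave an adjusted p at 1 of the 8, GATA2, which did not pass. TCF7 had 1.97 and 3.43 CPM in DMSO and 4.56 and 4.35 with PR-957 at its internal start, with a log2 fold change of 0.74 (SE 0.24, adjusted p = 0.0735 in edgeR). The DMSO libraries differed from each other there, and TCF7 passed without DMSO replicate 2 (1.18, adjusted p = 0.0394), was at 0.37 without DMSO replicate 1 (adjusted p = 0.66), and passed with GC content offsets (0.86, adjusted p = 0.0382). BCL11B had 6.10 and 6.82 against 4.56 and 4.83, with -0.45 (SE 0.19, adjusted p = 0.19). The groups did not overlap at 5 of 8 genes, TCF7 and GATA3 higher and BCL11B, PAX5 and KLF1 lower with PR-957, against 46.7% of all intervals and 68.3% of those standing for protein-coding genes.

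In the same loci none of 53 H3K4me3, 37 H3K27ac and 60 H3K4me1 intervals passed in edgeR. An unadjusted p under 0.05 in edgeR was found at 7, 2 and 9 of them. PAX5 held 5 of these 7 H3K4me3 intervals and 2 of the 2 H3K27ac intervals. Listed intervals overlap and recount the same reads, so these counts are not of independent intervals. Among protein-coding genes with a tested interval, 1028 of 12795, 1155 of 12089 and 1470 of 8702 had such a p in edgeR, in the same order of marks. DESeq2 called none of the 53 H3K4me3 intervals, and it gave an adjusted p at 0 of the 37 H3K27ac and 6 of the 60 H3K4me1 intervals, none of which passed. Of the 8 other non-myeloid factors with H3K27me3, 2 were lower with PR-957 and none was higher. They were the T cell factor EOMES (log2 fold change -0.45, SE 0.063, adjusted p = 2.77e-09 in edgeR) and the plasma cell factor IRF4 (-0.22, SE 0.063, adjusted p = 0.0124). Among the intervals that stand for protein-coding genes 9.99% were lower. EOMES and IRF4 had 7.08 and 6.40 CPM per kb in DMSO. Of all intervals with a mean over 4 libraries between 4 and 8 CPM per kb, 17.5% were lower. In the other 3 marks none of the other non-myeloid or myeloid factors passed in edgeR.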

How the data were processed

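The authors deposited 1 table per library with whole-number counts of reads or fragments on a list of intervals per mark, shared by its 4 libraries and without normalization. Reads were aligned to hg38 with Bowtie2, and the study names MACS2 or SEACR as peak callers. The submitters' processing notes name Trimmomatic 0.39, Bowtie2 2.2.5, Picard 2.27.1, SAMtools 1.7, SEACR 1.3 and deepTools 3.5.1. Which program counted the intervals was not given in these sources. The lists hold 59230 H3K4me3, 74559 H3K27ac, 108165 H3K4me1 and 33437 H3K27me3 intervals, which overlap into 16122, 30670, 34931 and 13897 separate regions. Coordinates are printed as listed. Total counts per library were 30070119 to 44591150 for H3K4me3, 9885836 to 14165777 for H3K27ac, 15204186 to 30584219 for H3K4me1 and 10032503 to 12047958 for H3K27me3. Both DMSO libraries were deeper than either PR-957 library for H3K4me3 and H3K4me1.

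Intervals were kept by filterByExpr (minimum count 10), scaled by TMM and tested two-sided in edgeR 4.0.16 (quasi-likelihood, R 4.3.3), 1 fit per mark without a replicate block. CPM use the TMM-scaled library size. With 2 libraries against 2, an exact permutation test of a single value cannot go below p = 0.333. All 10 genes are named in each mark, and other lists are given as counts with at most 4 genes named per list and mark, those with the smallest p among those that passed. The result of 1 gene in a comparison list is not reported here. The members and lists were chosen with earlier results of these data known.

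Alternatives were scaling by library size alone, by median-of-ratios factors, by cyclic loess (limma 3.58.1) or by GC content offsets, DESeq2 1.42.0, all intervals without a filter, intervals with a mean count of 50 or more, the replicate block, leaving out each library, windows of 1 and 5 kb, the interval with the most counts per kb, and summed counts. Offsets on the counts per kb (loess span 0.3) and the canonical TSS alone were added after seeing the data.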

Additional observations from a re-analysis of the deposited data

How the results depend on the processing

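H3K27me3 passed at 2 of the 10 genes with cyclic loess offsets and at 2 with offsets on the counts per kb, against 4, and at 3 to 5 when 1 library was left out. It passed in 10 locus intervals after cyclic loess offsets and 8 with offsets on the counts per kb, against 20, and in 12 to 22 when 1 library was left out, the 12 without DMSO replicate 1. H3K4me1 passed at 1 gene with GC content offsets and at 0 to 1 when 1 library was left out, the 1 without DMSO replicate 2. H3K4me1 passed in 1 locus interval each with library size only, cyclic loess offsets and GC content offsets, and in 0 to 2 when 1 library was left out, the 2 without DMSO replicate 2. H3K27ac was listed at 5 genes within 5 kb and at 1 with the canonical TSS alone, against 3. H3K4me3 and H3K27ac passed at 0 genes and 0 locus intervals in each alternative that gave a value. DESeq2 gave no adjusted p for H3K27ac at the genes or loci, and at 1 of 8 genes and 6 of 60 locus intervals for H3K4me1. For H3K27me3 it gave an adjusted p at 9 of 10 genes and at 47 of 119 locus intervals. With the replicate number as a block, H3K27me3 passed at 4 genes and in 16 locus intervals, so the block changed no gene call but ended the calls of 2 of the 6 separate regions, the inner PAX5 region (adjusted p = 0.0996 to 0.127 in edgeR) and the KLF1 interval (0.0991). The deviations of libraries that share a number correlated at 0.167 for H3K4me3 and at -0.009, 0.007 and -0.007 for H3K27ac, H3K4me1 and H3K27me3, and the numbers were not taken to pair the libraries.

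The sign of values that did not pass turned as follows. H3K4me3 at GATA2 was 0.015 after cyclic loess, 0.0045 when scaled by library size alone and 0.0096 with offsets on the counts per kb. H3K4me3 at KLF1 was -0.062 with the 5 kb window. When 1 library was left out, H3K4me3 ran from -0.18 to 0.15 at GATA2, from -0.44 to 0.24 at EBF1, from -0.26 to 0.66 at TAL1, from -0.15 to 0.092 at BCL11B and from -0.26 to 0.13 at TBX21. H3K27ac at GATA2 then ran from -0.19 to 0.033. H3K4me1 at GATA2 was 0.070 with GC content offsets, 0.099 for the interval with the most counts per kb, 0.024 for summed counts and -0.15 to 0.021 without 1 library. H3K4me1 at EBF1 was -0.064 with GC content offsets and -0.044 to 0.12 without 1 library. H3K27me3 at TCF7 was 0.13 with library size only, 0.045 with cyclic loess offsets, 0.032 with a mean count of at least 50, 0.031 with offsets on the counts per kb, 0.013 for summed counts and -0.10 to 0.015 without 1 library. H3K27me3 at BCL11B was 0.029 after cyclic loess and 0.031 when scaled by library size alone. H3K27me3 at TBX21 was -0.022 for the interval with the most counts per kb and -0.13 to 0.22 without 1 library. The cause of these changes was not tested. Where a group is left with 1 library, that library is assumed to vary like the others. Low counts, as in H3K27me3 at KLF1 and in H3K27ac at PAX5, limit what could be detected.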
